A study of Mus musculus with 36 samples.

Results

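Cholesterol synthesis and its control were followed through 28 genes in cells of the mouse subependymal zone (SEZ), the neurogenic niche that lines the lateral ventricles of the adult brain. The genes were chosen by name as the enzymes of the pathway and the proteins that sense, regulate, carry and store its product. Earlier results of these data were known when they and the lists used below were chosen. All 28 were among the 19909 genes of the deposited table, and all 28 passed the filter on low values in every comparison. By role they were 19 enzymes and 9 genes of control, transfer and storage.

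RNA was sequenced in 36 libraries from C57BL/6 mice aged 8 weeks, with no genetic change named in the labels. From tissue homogenates, 28 libraries were made of 8 populations separated by fluorescence-activated cell sorting (FACS): qNSC, pNSC, aNSC and NPC1 with 4 libraries each, and NPC2, NB1, NB2 and Other with 3 each. The labels give these names without spelling them out; NPC1 and NPC2 are cell populations here, not the sterol transport genes of those names. The remaining 8 libraries came from neurospheres, which are floating cell clusters grown from SEZ tissue. These had reached passage 4 with the growth factors EGF and FGF, were loaded with DFFDA, a fluorescein dye, at 2 ug/ml, grown for 4 more days and sorted into DFFDA_H and DFFDA_L, 4 libraries each. The design text says that both neurosphere fractions differ in how fast they divide. A dye of this kind is diluted with each division, but the labels do not say which fraction divided more slowly. The labels call the libraries biological replicates but give no sort gates and no numbers of animals or separate cultures. The p-values therefore rest on the spread among the libraries at hand, part of which may be technical.

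All cells can build cholesterol from acetyl-CoA. The first block of enzymes makes mevalonate and activates it, the next joins its isoprene units into squalene, another closes the ring to lanosterol, and the last block trims and reduces lanosterol to cholesterol. SREBP-2, the product of Srebf2, switches most of these genes on when membranes run low in sterol, while SREBP-1 (Srebf1) acts mainly on fatty acid genes. SCAP carries both precursors from the endoplasmic reticulum to the Golgi, where they are cut to the active form, and the INSIG proteins hold them back when sterol is plentiful. Liver X receptors, nuclear receptors for oxidised sterols, turn on export genes and Srebf1. The brain makes nearly all of its own cholesterol, since lipoproteins of the blood hardly cross into it, and astrocytes and myelinating cells are known as its main producers.

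Promoter sequence is shown for 5 members that recur below, as the stretch before the RefSeq start of each: Hmgcs1, the one member whose window held a sterol regulatory element, Msmo1, Sc5d and Tm7sf2, which were lower in aNSC than in qNSC, and Lbr, which was higher. Each is the first window listed for the gene by RefSeq on build GRCm38.p6, written 5′ to 3′ on the strand of the gene and ending at the base before its start. Each is 250 bases long. Capitals mark CCAAT or its reverse complement ATTGG, the binding word of NF-Y, a partner of SREBP, the sterol regulatory element TCACNCCAC or GTGGNGTGA, and the E-box CACGTG, which SREBP-1 can also bind. The windows lie at chr13:119690101-119690350 on the plus strand for Hmgcs1, and on the minus strand at chr8:64733579-64733828 for Msmo1, chr9:42264301-42264550 for Sc5d, chr19:6067851-6068100 for Tm7sf2 and chr1:181842402-181842651 for Lbr.
Hmgcs1: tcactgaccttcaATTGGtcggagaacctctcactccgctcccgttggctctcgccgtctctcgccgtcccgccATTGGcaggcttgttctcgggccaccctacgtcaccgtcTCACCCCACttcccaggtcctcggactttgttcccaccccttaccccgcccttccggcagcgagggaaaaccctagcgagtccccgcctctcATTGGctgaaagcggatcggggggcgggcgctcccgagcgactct
Msmo1: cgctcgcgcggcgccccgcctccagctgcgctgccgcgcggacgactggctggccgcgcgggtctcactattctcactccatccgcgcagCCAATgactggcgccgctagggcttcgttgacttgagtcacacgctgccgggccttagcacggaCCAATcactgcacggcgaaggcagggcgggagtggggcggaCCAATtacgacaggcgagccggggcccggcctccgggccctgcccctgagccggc
Sc5d: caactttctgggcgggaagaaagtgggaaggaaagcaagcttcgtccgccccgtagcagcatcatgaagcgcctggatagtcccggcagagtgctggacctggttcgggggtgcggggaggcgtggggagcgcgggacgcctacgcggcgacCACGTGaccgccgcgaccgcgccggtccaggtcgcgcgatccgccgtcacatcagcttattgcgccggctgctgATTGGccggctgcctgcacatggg
Tm7sf2: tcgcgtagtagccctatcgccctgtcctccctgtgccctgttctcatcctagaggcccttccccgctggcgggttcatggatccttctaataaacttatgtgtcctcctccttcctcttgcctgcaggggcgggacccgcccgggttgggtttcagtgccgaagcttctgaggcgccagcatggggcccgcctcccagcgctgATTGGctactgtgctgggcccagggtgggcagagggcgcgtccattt
Lbr: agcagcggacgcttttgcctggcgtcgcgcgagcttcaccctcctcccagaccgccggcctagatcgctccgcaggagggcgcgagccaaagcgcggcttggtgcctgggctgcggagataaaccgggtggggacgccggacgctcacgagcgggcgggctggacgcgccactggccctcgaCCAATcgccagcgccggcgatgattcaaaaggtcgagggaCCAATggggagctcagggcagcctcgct
A window was found for 24 of the 28 genes, and not for Fdps, Fdft1, Sqle and Stard4. A CCAAT box on either strand lay in the first window of 19 of the 24 (79.2%), against 34.5% of the first windows of all 27025 genes with a RefSeq window. These 27025 were not limited to the genes of the deposited table or to those that passed the filter, as all members did. The sterol regulatory element lay in 1 of the 24 (4.17%), in Hmgcs1, against 1.04% of all genes. The E-box lay in 3 of the 24 (12.5%), in Hsd17b7, Sc5d and Insig1, against 6.05%. No match of one word overlapped a match of another in these windows. In the GENCODE annotation of GRCm38 the genes themselves span chr13:119690379-119708260 (Hmgcs1), chr8:64718139-64733792 (Msmo1), chr9:42251595-42264256 (Sc5d), chr19:6062821-6068373 (Tm7sf2) and chr1:181815335-181843046 (Lbr). The spans of Msmo1, Tm7sf2 and Lbr include starts upstream of the RefSeq start used. The windows of Tm7sf2 and Lbr thus lie wholly, and that of Msmo1 mostly, inside the GENCODE gene, downstream of its outermost start. For Hmgcs1 and Sc5d the outermost GENCODE start lies downstream of the RefSeq start, and their windows lie outside the GENCODE gene. A match describes the letters only, and a window without one says nothing of the factor.

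Every value given for a gene is a log2 value as the authors deposited it, on which a step of 1 is a 2-fold step, and every difference is a log2 difference. Values were compared between libraries of the same gene and not between genes, since they were not divided by gene length. A gene was called when its adjusted p, from limma with Benjamini-Hochberg adjustment over all genes of the fit, was under 0.05. Read totals per library were not used here; each library instead has a lowest value shared by its undetected genes, from -5.06 to -2.18, which held 362 to 3932 genes. qNSC replicate 1 had the highest of these floors and the most genes on it, and correlated with the other qNSC libraries at only 0.879 to 0.881, and pNSC replicate 1 (2319 genes on its floor, 0.901 to 0.908 with the other pNSC libraries) also stood apart. The libraries resemble each other in their whole distribution, with medians of 3.53 to 3.56, so that a value describes a gene's place among the genes of its library and not RNA per cell. In such bulk libraries fewer cells that use a gene cannot be told apart from less of its RNA in each cell. Astroglial and stem cell markers, 10 genes, summed in linear values to 21600 to 23400 in qNSC, 1570 to 2830 in aNSC and 220 to 255 in NB2 libraries. All 10 were called lower in aNSC and in NB2 than in qNSC. The 8 neuroblast markers summed to 178 to 298 in qNSC, 1780 to 2310 in aNSC and 9210 to 9540 in NB2. All 8 were called higher in NB2 than in qNSC, but in aNSC 5 were higher and 2 lower. Dlx2 led the aNSC sum (mean 9.47, against 5.63 in qNSC). Stmn2 averaged 4.38 in qNSC and 2.43 in aNSC, and Gad1 3.83 in qNSC and 1.84 in aNSC.

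Over the 7 named fresh populations, 26 of the 28 genes differed (84.3% of all genes tested did), the exceptions being Lss and Nr1h2 (adjusted p = 0.22 and 0.344). The genes did not share a single course. Of the 28, 15 had their highest mean of the 7 in qNSC, 5 in aNSC (Hmgcs1, Lbr, Hsd17b7, Insig1 and Stard4), 4 in NB1 (Acat2, Fdps, Cyp51 and Ebp), 2 in NPC2, 1 in pNSC and 1 in NB2. The lowest mean lay in NB2 for 12 genes and in aNSC for 6. These places were not counted over all genes, so no share of all genes stands beside them. Between NB2 and qNSC, 68.3% of all genes were called (39.4% higher and 28.8% lower in NB2). The widest span between the highest and the lowest mean was that of Soat1, which esterifies cholesterol for storage, followed by those of Srebf1 and of Msmo1, a methylsterol oxidase. Nr1h2, a liver X receptor, spanned 0.4 and Lss, which closes the sterol ring, 0.45. The mean of Soat1 was 8.19 in qNSC, 7.82 in pNSC, 5.99 in aNSC, 4.75 in NPC1, 4.89 in NPC2, 4.28 in NB1 and 3.54 in NB2. The mean of Lbr was 4.78 in qNSC, 6.62 in pNSC, 8.2 in aNSC, 8.08 in NPC1, 8.1 in NPC2, 7.94 in NB1 and 6.24 in NB2. Soat1 was thus lowest and Lbr above its qNSC level in NB2.

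**Figure D1:**
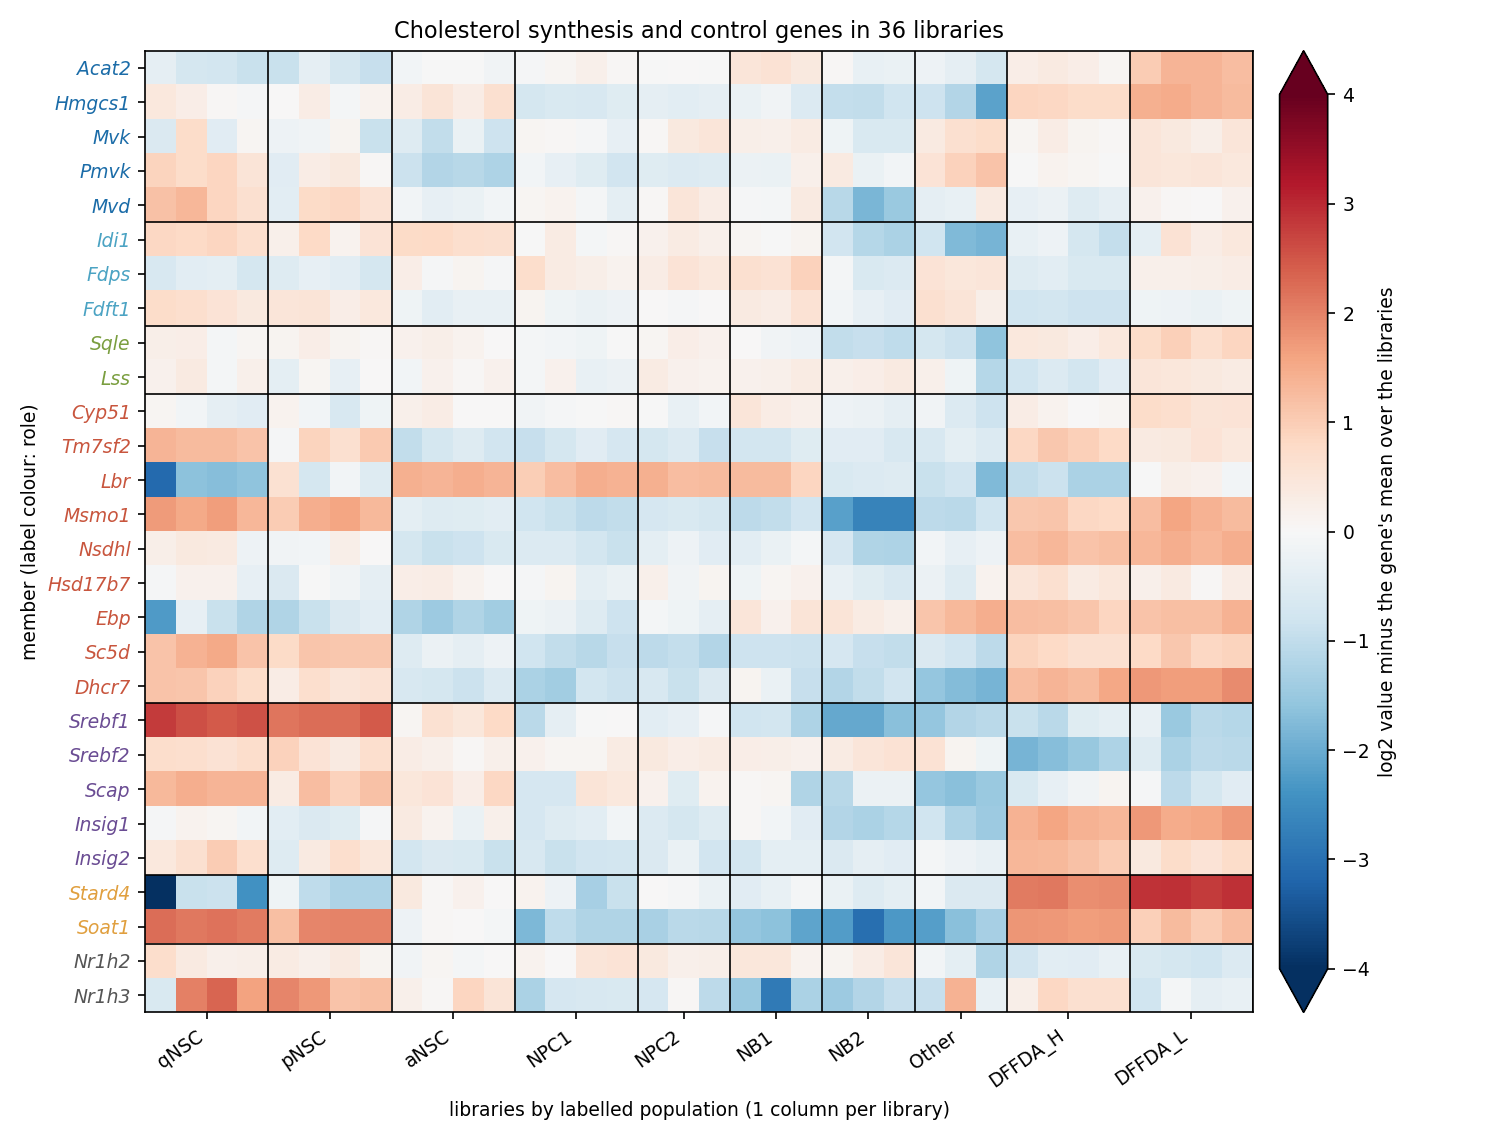
Deposited log2 value of each of the 28 genes (rows, label colour by role) in each of the 36 libraries (columns, by population), with the mean of the gene over all libraries subtracted and the colour scale capped at 4 on either side. Srebf1, Soat1, Msmo1 and Sc5d are high in the qNSC and pNSC columns and low in the neuroblast columns, while Lbr and Stard4 are low in qNSC, and the DFFDA columns are high for Insig1, Stard4 and Nsdhl and low for Srebf2.

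Between pNSC and qNSC few members were called, 1 higher and 2 lower, where 22.3% of all genes were called (14.2% higher and 8.06% lower). Lbr, a reductase of the sterol ring that also anchors chromatin to the nuclear envelope, had values of 7.41, 6.11, 6.68 and 6.3 in pNSC, against 3.69, 5.17, 5.09 and 5.18 in qNSC libraries (log2 difference 1.84 ± 0.27 (SE), adjusted p = 1.71e-05). Its groups did not overlap. Pmvk, which adds the second phosphate to mevalonate, had 5.12, 5.87, 5.99 and 5.63 in pNSC, against 6.49, 6.31, 6.46 and 6.11 in qNSC libraries (log2 difference -0.69 ± 0.19 (SE), adjusted p = 0.00882). Tm7sf2, the other reductase that acts at the position of Lbr, had 4.78, 5.71, 5.45 and 5.86 in pNSC, against 6.17, 6.09, 6.07 and 5.97 in qNSC libraries (log2 difference -0.63 ± 0.18 (SE), adjusted p = 0.0143). Both were lowest in pNSC replicate 1, one of the libraries that stood apart, and without it neither was called (Pmvk -0.51, adjusted p = 0.0557, and Tm7sf2 -0.4, adjusted p = 0.0832), while Lbr was (1.58, adjusted p = 0.000128) and its difference was 1.48 without qNSC replicate 1. With the libraries centred on their median ratio instead, 1 member was higher and 7 lower, and 51.5% of all calls were higher in place of 63.8%. Of 6 activated stem cell and progenitor markers 5 were higher in pNSC (summed linear values of 559 to 1210 in pNSC and 191 to 244 in qNSC), of 8 neuroblast markers 7 were higher (693 to 2190 in pNSC and 178 to 298 in qNSC), and of 10 microglial markers 4 were higher (535 to 972 in pNSC and 336 to 745 in qNSC). Their part in the result was not tested.

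Far more members were called between aNSC and the other stem cell populations. Against qNSC, 5 of the 28 genes were higher and 15 lower in aNSC, where 62.3% of all genes were called (35.3% higher and 27.1% lower). The median difference of the members was -0.54, and that of all genes 0.19. Against pNSC, 5 were higher and 12 lower (48.3% of all genes called, 28.4% higher and 19.9% lower), with medians of -0.42 for the members and 0.22 for all genes. The comparisons share the aNSC libraries. Of the 19 enzymes, 4 were higher and 9 lower in aNSC than in qNSC. Groups did not overlap for 4 of the 5 higher and 14 of the 15 lower members, and 30.3% of all genes were called higher and 24.4% lower without overlap. With the libraries centred on their median ratio the median of all genes between aNSC and qNSC was -0.12, 44.8% of all calls were higher in place of 56.6%, and 4 members were higher and 17 lower. Between aNSC and pNSC this centring gave 45.1% in place of 58.8% higher, a median of all genes of 0.01, and 3 members higher and 16 lower.

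In the early steps the enzymes went opposite ways. Acat2, the thiolase that joins the first acetyl units, had 7.09, 7.17, 7.16 and 7.03 in aNSC, 6.3, 6.82, 6.49 and 6.25 in pNSC and 6.84, 6.49, 6.45 and 6.29 in qNSC libraries (log2 difference 0.6 ± 0.13 (SE), adjusted p = 0.000287 against qNSC, and log2 difference 0.65 ± 0.13 (SE), adjusted p = 0.000192 against pNSC). All 4 aNSC libraries lay above all pNSC and qNSC libraries. Fdps, which makes farnesyl diphosphate, had 7.11, 6.8, 6.94 and 6.81 in aNSC, 6.34, 6.51, 6.42 and 6.13 in pNSC and 6.21, 6.42, 6.44 and 6.13 in qNSC libraries (log2 difference 0.61 ± 0.14 (SE), adjusted p = 0.000312 against qNSC, and log2 difference 0.57 ± 0.14 (SE), adjusted p = 0.00118 against pNSC). In build GRCm38, 26.7% of the exon bases of Fdps also belong to Gm43738 on the same strand, so the reads of both cannot be fully told apart. Pmvk averaged 4.5 ± 0.16 (SD, n = 4) in aNSC and 6.34 ± 0.176 (SD, n = 4) in qNSC (log2 difference -1.84 ± 0.19 (SE), adjusted p = 2.84e-09), and Mvd, the decarboxylase that follows it, 5.09 ± 0.112 (SD, n = 4) in aNSC and 6.3 ± 0.31 (SD, n = 4) in qNSC (log2 difference -1.21 ± 0.23 (SE), adjusted p = 5.17e-05). Fdft1, squalene synthase, was also lower in aNSC (log2 difference -0.89 ± 0.11 (SE), adjusted p = 1.03e-07); 18.3% of its exon bases are shared with Ctsb on the other strand, and the library kit does not keep the strand. Hmgcs1, Idi1, Sqle and Lss were not called, with differences of 0.27, -0.07, 0 and -0.1. Of its exon bases, Hmgcs1 shares 12.1% with Gm48342, Idi1 9.22% with Gm48574 and Lss 3.53% with 4930483K19Rik, all on the other strand.

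In the block after lanosterol most enzymes were lower in aNSC. Msmo1 had values of 7.74, 7.61, 7.64 and 7.68 in aNSC, 9.13, 9.56, 9.7 and 9.42 in pNSC and 9.82, 9.64, 9.79 and 9.43 in qNSC libraries, which is 4.01-fold lower than in qNSC (log2 difference -2 ± 0.13 (SE), adjusted p = 5.65e-13, and log2 difference -1.79 ± 0.13 (SE), adjusted p = 1.98e-11 against pNSC). Sc5d, the sterol desaturase, had 6.33, 6.61, 6.48 and 6.62 in aNSC, 7.6, 7.95, 7.92 and 7.93 in pNSC and 7.97, 8.23, 8.34 and 7.99 in qNSC libraries (log2 difference -1.62 ± 0.12 (SE), adjusted p = 9.91e-12 against qNSC, and log2 difference -1.34 ± 0.12 (SE), adjusted p = 1.26e-09 against pNSC). For both genes the aNSC libraries lay below every pNSC and qNSC library. Tm7sf2 had 3.83, 4.11, 4.3 and 4.04 in aNSC, against 6.17, 6.09, 6.07 and 5.97 in qNSC libraries (log2 difference -2 ± 0.18 (SE), adjusted p = 3.89e-10). Dhcr7, the reductase that completes cholesterol (-1.67), and Nsdhl, which works with Msmo1 on the methyl groups (-0.95), were called lower as well. Tm7sf2 shares 12.1% of its exon bases with Vps51 on the same strand.

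Lbr went the other way. It had 8.23, 8.16, 8.25 and 8.16 in aNSC, 7.41, 6.11, 6.68 and 6.3 in pNSC and 3.69, 5.17, 5.09 and 5.18 in qNSC libraries (log2 difference 3.42 ± 0.27 (SE), adjusted p = 2.85e-11 against qNSC, and log2 difference 1.58 ± 0.27 (SE), adjusted p = 2.75e-05 against pNSC). Every aNSC library lay above every pNSC library, and every pNSC above every qNSC library. Of the pair that can reduce the same bond, Tm7sf2 was thus lower and Lbr higher in aNSC, and without qNSC replicate 1, the lowest for Lbr, its difference from qNSC was 3.06 (adjusted p = 1.02e-11). Of its exon bases, 9.24% are shared with Dnah14 on the other strand. Cyp51, the lanosterol demethylase, was higher by 0.36 (adjusted p = 0.0365), a call that was lost without any 1 of qNSC replicates 3 or 4 and aNSC replicates 1 or 2 (adjusted p = 0.0804 to 0.131) and under median-ratio centring (0.06, adjusted p = 0.743).

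Among the regulators, Srebf1 had 6.94, 7.46, 7.32 and 7.65 in aNSC, 8.99, 9.1, 9.09 and 9.31 in pNSC and 9.64, 9.44, 9.32 and 9.4 in qNSC libraries (log2 difference -2.1 ± 0.19 (SE), adjusted p = 4.1e-10 against qNSC, and log2 difference -1.78 ± 0.19 (SE), adjusted p = 2.55e-08 against pNSC). Soat1 had 5.85, 6.09, 6.05 and 5.96 in aNSC, 7.24, 7.99, 8.03 and 8.04 in pNSC and 8.27, 8.16, 8.21 and 8.12 in qNSC libraries (log2 difference -2.21 ± 0.21 (SE), adjusted p = 7.72e-10 against qNSC, and log2 difference -1.84 ± 0.21 (SE), adjusted p = 5.7e-08 against pNSC). For both, the aNSC libraries lay below all others of the 3 populations. Srebf2, Scap and Insig2 were lower too, with differences of -0.49, -0.84 and -1.39. Scap shares 13.2% of its exon bases with 5830462I19Rik on the other strand. Insig1, itself a target of SREBP, was not called against qNSC (0.09), and against pNSC it had 7.01, 6.78, 6.36 and 6.84 in aNSC and 6.23, 6.05, 6.17 and 6.59 in pNSC libraries (log2 difference 0.49 ± 0.16 (SE), adjusted p = 0.0125). The Insig1 call was lost without aNSC replicate 1 (0.4, adjusted p = 0.057) and under median-ratio centring (0.27, adjusted p = 0.167).

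Stard4, which carries sterol through the cytosol, had 4.67, 4.33, 4.45 and 4.31 in aNSC, against -2.18, 3.4, 3.42 and 1.87 in qNSC libraries (log2 difference 2.81 ± 0.69 (SE), adjusted p = 0.000974). The value of qNSC replicate 1 lay at the floor of that library, so the size of this difference depends on it, and without that library the difference was 1.54 (adjusted p = 0.000287). Nr1h3 was not called with all libraries (-0.92) and was called lower without qNSC replicate 1 (-1.57, adjusted p = 0.00325), as was Ebp (-0.51, adjusted p = 0.0361). Without that library 5 members were higher and 16 lower. The Mvk and Nr1h2 calls, -0.6 and -0.4, were lost without single libraries: Mvk without qNSC replicate 2 or 4 or aNSC replicate 2 or 4 (adjusted p = 0.0697 to 0.199), Nr1h2 without qNSC replicate 1 or 2 or aNSC replicate 1, 3 or 4 (adjusted p = 0.0565 to 0.149). Against pNSC, where Hsd17b7 was called higher and Mvd lower, both calls were lost without single libraries (Hsd17b7 without pNSC replicate 1 or 4 or aNSC replicate 1 or 2, adjusted p = 0.0557 to 0.0849, and Mvd without pNSC replicate 2, 3 or 4 or aNSC replicate 2, adjusted p = 0.0546 to 0.0843).

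Markers of other cell types moved with this comparison. Of 11 oligodendrocyte markers, summed linear values were 202 to 241 in aNSC and 422 to 564 in qNSC, nearly all from Cnp, and Mag, Mog, Cldn11 and Opalin averaged under 0 in both. The 6 ependymal markers summed to 13.5 to 23.3 in aNSC and 138 to 156 in qNSC, led by Rarres2. The 5 mural markers summed to 1.11 to 5.91 in aNSC and 120 to 163 in qNSC. The qNSC sum was nearly all from Pdgfrb (mean 7.11), with Rgs5, Tagln and Vtn at 0.48, 0.42 and 0.45. Acta2 averaged under 0 in both populations. The part of these cells in the lower members was not tested.

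**Figure D2:**
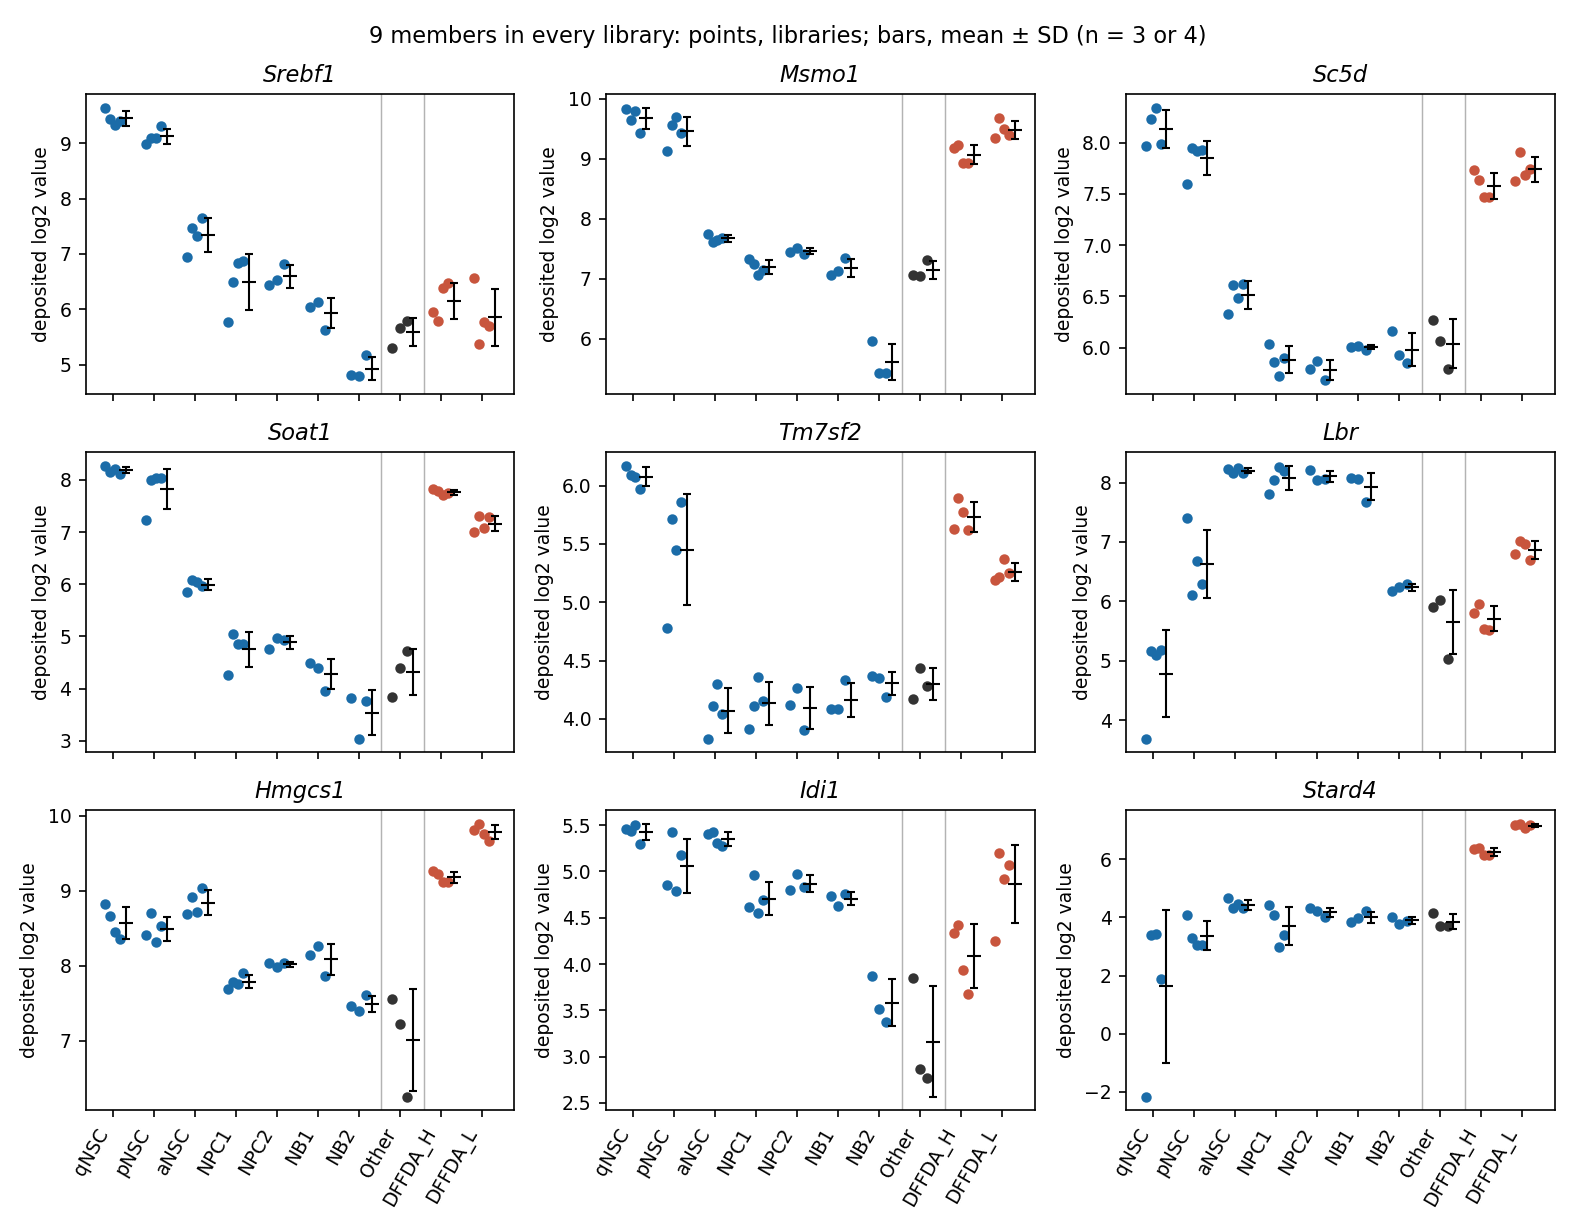
Deposited log2 values of 9 of the genes (1 panel each) in the populations along the horizontal axis, with a point for each library and bars for the mean ± SD of the 3 or 4 libraries of a population. Msmo1, Srebf1 and Soat1 are highest in qNSC and pNSC among the fresh populations, Lbr is lowest in qNSC, and Stard4 is highest in both neurosphere fractions.

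Between NPC1 and aNSC, 2 members were higher and 7 lower, where 12.7% of all genes were called (6.24% higher and 6.48% lower). Hmgcs1, which makes HMG-CoA, had 7.69, 7.78, 7.76 and 7.9 in NPC1, against 8.69, 8.92, 8.71 and 9.03 in aNSC libraries (log2 difference -1.06 ± 0.18 (SE), adjusted p = 0.000177). Sc5d had 6.04, 5.86, 5.72 and 5.9 in NPC1, against 6.33, 6.61, 6.48 and 6.62 in aNSC libraries (log2 difference -0.63 ± 0.12 (SE), adjusted p = 0.000885). Neither gene's groups overlapped. Srebf1 had 5.77, 6.5, 6.83 and 6.88 in NPC1, against 6.94, 7.46, 7.32 and 7.65 in aNSC libraries (log2 difference -0.85 ± 0.19 (SE), adjusted p = 0.00353). Soat1 had 4.26, 5.04, 4.85 and 4.85 in NPC1, against 5.85, 6.09, 6.05 and 5.96 in aNSC libraries (log2 difference -1.24 ± 0.21 (SE), adjusted p = 0.000186). For both, the NPC1 libraries lay below all aNSC libraries, NPC1 replicate 1 the farthest. Pmvk had 5.48, 5.25, 5.1 and 4.82 in NPC1, against 4.73, 4.43, 4.47 and 4.36 in aNSC libraries (log2 difference 0.66 ± 0.19 (SE), adjusted p = 0.0175). Ebp, the sterol isomerase, had 4.58, 4.52, 4.25 and 3.92 in NPC1, against 3.55, 3.29, 3.54 and 3.36 in aNSC libraries (log2 difference 0.88 ± 0.26 (SE), adjusted p = 0.0257). These were the 2 higher members, both without overlap. Both calls rested on single libraries: without aNSC replicate 2 or 4 or NPC1 replicate 1 the adjusted p of Pmvk was 0.05 to 0.0844, and without these or NPC1 replicate 2 that of Ebp was 0.0661 to 0.0937. The calls of Idi1 and Insig1, both lower, were lost in the same way without aNSC replicate 1 or 2 or NPC1 replicate 1 (adjusted p = 0.0518 to 0.0699 for Idi1 and 0.0642 to 0.107 for Insig1), for Idi1 also without NPC1 replicate 3 (0.0697), and for Insig1 also without aNSC replicate 4 or NPC1 replicate 2 (0.0727 and 0.062). Of 8 neuroblast markers 7 were higher in NPC1 (4430 to 5470 in NPC1 and 1780 to 2310 in aNSC), and of 10 astroglial and stem cell markers 2 were higher and 4 lower (437 to 950 in NPC1 and 1570 to 2830 in aNSC); their part in the result was not tested.

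Between NPC2 and NPC1 limma called no member, and none had an unadjusted p under 0.05, where 1.34% of all genes were called (0.202% higher and 1.14% lower). With library weights in limma 3 members were called, Sqle, Lss and Msmo1. The smallest p belonged to Nsdhl, with 5.4, 5.6 and 5.35 in NPC2, against 5.25, 5.24, 5.08 and 4.92 in NPC1 libraries (log2 difference 0.33 ± 0.16 (SE), adjusted p = 0.492), and to Dhcr7, with 5.82, 5.55 and 5.87 in NPC2, against 5.18, 5.05, 5.71 and 5.58 in NPC1 libraries (log2 difference 0.37 ± 0.19 (SE), adjusted p = 0.527). The NPC2 libraries lay above all NPC1 libraries for Nsdhl and overlapped them for Dhcr7.

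Between NB1 and NPC2, 2 members were called, both higher (7.67% of all genes called, 3.78% higher and 3.88% lower). Fdft1 had 8.06, 8 and 8.27 in NB1, against 7.7, 7.63 and 7.7 in NPC2 libraries (log2 difference 0.43 ± 0.13 (SE), adjusted p = 0.0343). Acat2 had 7.68, 7.75 and 7.59 in NB1, against 7.18, 7.21 and 7.16 in NPC2 libraries (log2 difference 0.49 ± 0.15 (SE), adjusted p = 0.0434). The groups did not overlap for either gene. The Acat2 call was lost without any 1 of the 6 libraries (adjusted p = 0.0579 to 0.152), and the Fdft1 call without any 1 except NB1 replicate 2 (0.0762 to 0.14).

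NB2 differed from NB1 in 1 direction. Of the 28 genes, 16 were lower in NB2 and none higher, where 24.6% of all genes were called (10.4% higher and 14.2% lower). Members had a median difference of -0.61 and all genes of -0.03. Among the 19 enzymes 13 were lower. Msmo1 had 5.96, 5.43 and 5.43 in NB2, against 7.06, 7.12 and 7.35 in NB1 libraries (log2 difference -1.57 ± 0.15 (SE), adjusted p = 2.78e-08). Fdps had 6.77, 6.24 and 6.29 in NB2, against 7.47, 7.43 and 7.77 in NB1 libraries (log2 difference -1.13 ± 0.16 (SE), adjusted p = 6.25e-06). The NB2 libraries of both genes lay below all NB1 libraries. Sqle, the epoxidase that opens the sterol branch, had 7.03, 7.11 and 6.99 in NB2, against 8.05, 7.88 and 7.83 in NB1 libraries (log2 difference -0.88 ± 0.15 (SE), adjusted p = 8.5e-05). Mvd had 4.18, 3.48 and 3.81 in NB2, against 5.24, 5.22 and 5.66 in NB1 libraries (log2 difference -1.55 ± 0.26 (SE), adjusted p = 8.58e-05). For both, the NB2 libraries again lay below all NB1 libraries. Lbr (-1.7), Srebf1 (-1.01) and Insig1 (-1.02) were lower as well, while Srebf2 was not called (0.23).

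The drop in NB2 came beside a drop of the 6 activated stem cell and progenitor markers, which summed to 328 to 350 in NB2 and 1770 to 1980 in NB1, and a higher sum of the 8 neuroblast markers, 9210 to 9540 in NB2 and 6520 to 7780 in NB1; their part in the result was not tested. Hmgcs1 was called with all libraries (-0.6) and not without NB1 replicate 1 or 2 or NB2 replicate 1 or 2 (adjusted p = 0.0716 to 0.12), and Dhcr7 likewise (0.0644 to 0.195). The Soat1 call was lost without NB1 replicate 1 or 2 or NB2 replicate 2 (0.078 to 0.182), the Hsd17b7 call without NB1 replicate 2 or 3 or NB2 replicate 2 or 3 (0.104 to 0.17), and the Cyp51 call without NB1 replicate 1 (0.0573) or NB2 replicate 3 (0.0529). Under median-ratio centring 12 members were lower and none higher: Hmgcs1 (adjusted p = 0.0575), Dhcr7 (0.063), Hsd17b7 (0.115) and Soat1 (0.0605) were not called, and 51.8% of all calls were higher in place of 42.1%.

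Against qNSC, at the other end of the fresh populations, NB2 had 4 members higher and 18 lower (68.3% of all genes called, 39.4% higher and 28.8% lower), with medians of -1.1 for the members and 0.3 for all genes. Msmo1 differed by -4.06, Srebf1 by -4.52, Soat1 by -4.66 and Sc5d by -2.15, each with every NB2 library below every qNSC library. Soat1 had 3.81, 3.04 and 3.76 in NB2, and Srebf1 4.81, 4.8 and 5.17 in NB2. The 4 higher members were Ebp (log2 difference 1.52 ± 0.28 (SE), adjusted p = 4.06e-05), Lbr (log2 difference 1.46 ± 0.29 (SE), adjusted p = 8.51e-05), Acat2 (log2 difference 0.49 ± 0.14 (SE), adjusted p = 0.00353) and Stard4 (log2 difference 2.27 ± 0.75 (SE), adjusted p = 0.00927). Ebp had 5.28, 5.07 and 4.95 in NB2, against 2.49, 4.42, 3.86 and 3.55 in qNSC libraries, without overlap. Stard4 rested in size on qNSC replicate 1 (1, adjusted p = 0.0159, without it) and lost its call when the fit held these populations alone (adjusted p = 0.128), and Acat2 lost its call under median-ratio centring (0.27, adjusted p = 0.0912). The Hsd17b7 call was lost without qNSC replicate 2 or 3 or NB2 replicate 3 (adjusted p = 0.0605 to 0.0972).

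**Figure D3:**
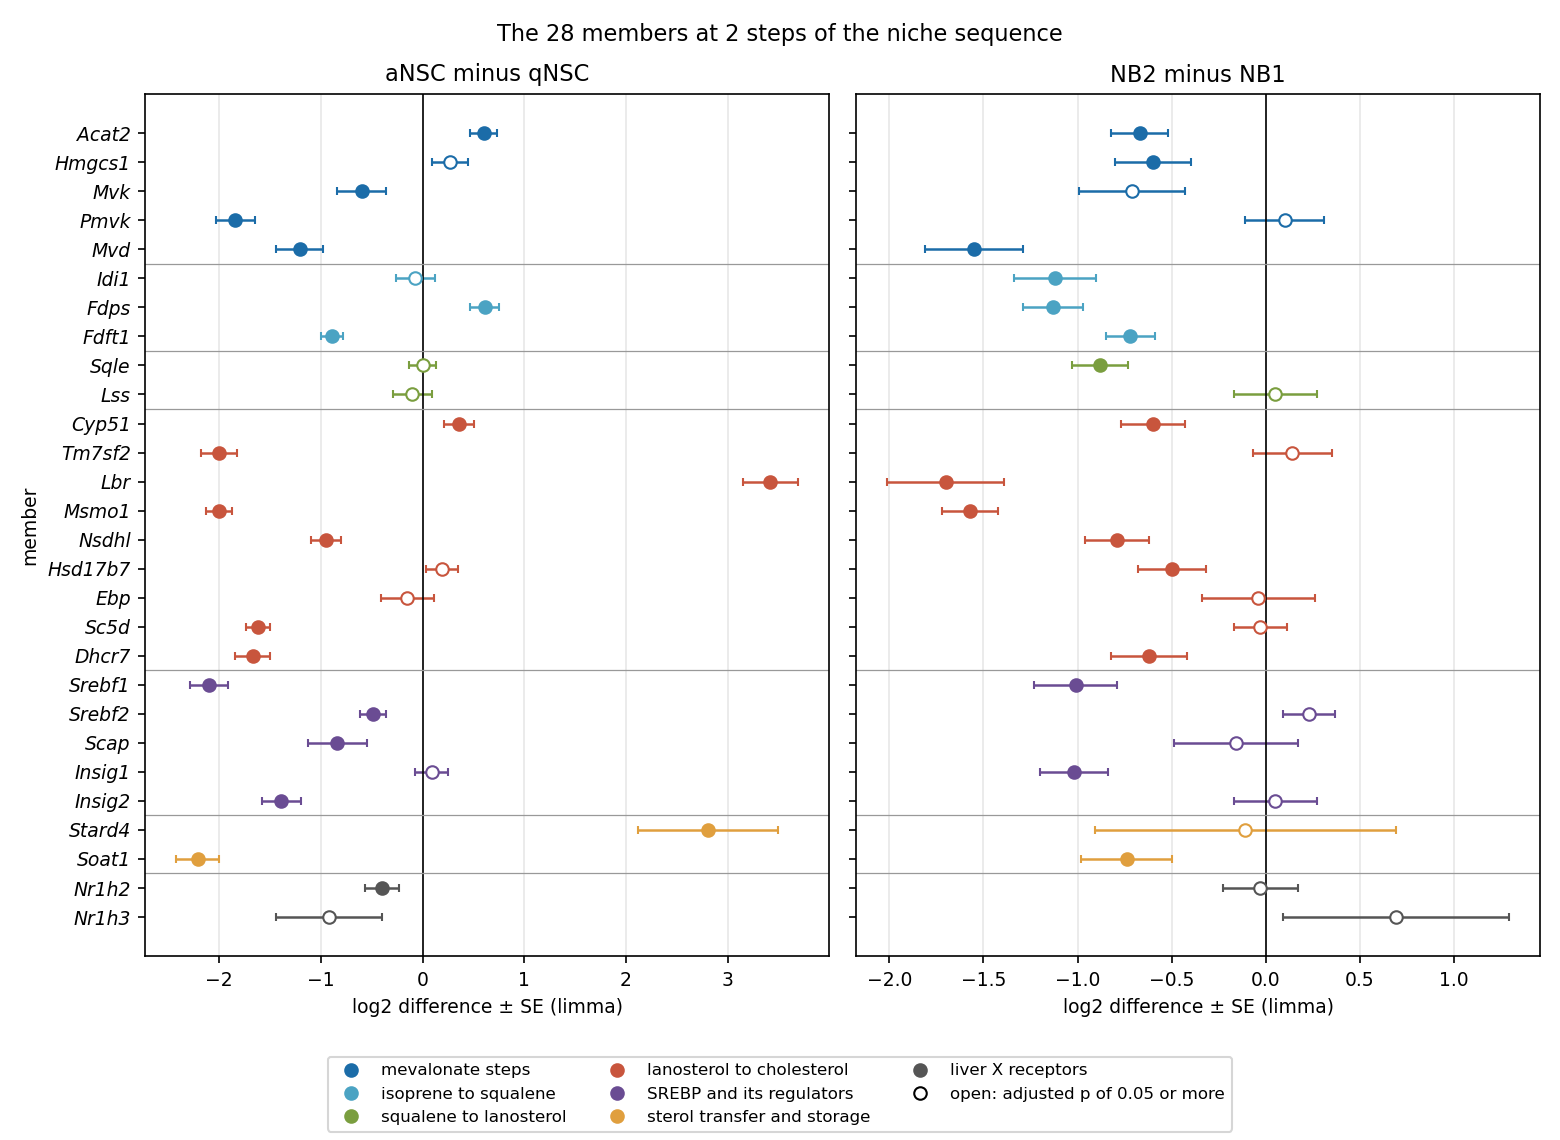
Log2 difference ± SE of each of the 28 genes for aNSC minus qNSC (left) and NB2 minus NB1 (right), with genes down the page by role and open points for an adjusted p of 0.05 or more. On the left Lbr and Stard4 lie farthest above 0 and Soat1, Srebf1, Msmo1 and Tm7sf2 at -2 or below, and on the right no filled point lies above 0.

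The population labelled Other was set against the mean of the 7 named populations. Here 5 members were higher and 14 lower, where 54.3% of all genes were called (25.9% higher and 28.4% lower). Idi1, the isomerase of isopentenyl diphosphate, had 3.85, 2.87 and 2.77 in Other, against population means of 3.59 to 5.43 in the 7 (log2 difference -1.65 ± 0.16 (SE), adjusted p = 1.19e-08). Other replicates 2 and 3 lay below the lowest of these means, and replicate 1 above it. Sqle had 7.32, 7.16 and 6.42 in Other, against means of 7.04 to 8.19 (log2 difference -0.97 ± 0.11 (SE), adjusted p = 1.23e-07). Dhcr7 had 4.89, 4.71 and 4.59 in Other, against means of 5.38 to 7.42 (log2 difference -1.39 ± 0.15 (SE), adjusted p = 4.2e-08), and its Other libraries lay below every library of the 7. Srebf1 had 5.31, 5.67 and 5.79 in Other, against means of 4.93 to 9.45 (log2 difference -1.53 ± 0.16 (SE), adjusted p = 3.76e-08), and lay among them. On the other side Ebp had 5.86, 6.05 and 6.2 in Other, against population means of 3.43 to 5.14 (log2 difference 1.74 ± 0.23 (SE), adjusted p = 6.94e-07). Pmvk had 6.14, 6.5 and 6.74 in Other, against means of 4.5 to 6.34 (log2 difference 1.06 ± 0.16 (SE), adjusted p = 5.22e-06). The Other libraries lay above every library of the 7 for Ebp, and overlapped those of qNSC for Pmvk. Fdps (0.48) and Fdft1 (0.36) were higher too, with 7.4, 7.3 and 7.33 and 8.32, 8.2 and 7.93 in Other. Of the 5 higher members 1, and of the 14 lower members 2, had no overlap with the libraries of the 7 populations, and 4.83% of all genes were called higher and 2.83% lower in this way. Without Other replicate 3 Lss (-0.09, adjusted p = 0.647) and Cyp51 (-0.29, adjusted p = 0.103) were no longer called. The 8 endothelial markers summed to 808 to 2290 in Other and to at most 19.6 in any library of the other populations. The 10 microglial markers summed to 670 to 1160 in Other, 336 to 745 in qNSC and 535 to 972 in pNSC. The 5 mural markers summed to 139 to 1880 in Other, 120 to 163 in qNSC and 22.3 to 147 in pNSC. Vtn led the mural sum in Other, and Pdgfrb led it in qNSC and pNSC. The 8 neuroblast markers summed to 5910 to 8760 in Other and 6520 to 7780 in NB1, and 7 were called higher in Other. The 10 astroglial and stem cell markers summed to 1010 to 2390 in Other, with 2 called higher and 3 lower. Of 6 activated stem cell and progenitor markers 6 were lower. The part of these markers in the result was not tested.

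In culture most of the enzymes were lower in DFFDA_H than in DFFDA_L. In DFFDA_H, 4 members were higher and 15 lower than in DFFDA_L, where 43.8% of all genes were called (21.6% higher and 22.3% lower). The median difference was -0.4 for the members and -0.01 for all genes. Of the 19 enzymes, 13 were lower in DFFDA_H and 1, Tm7sf2, was higher. Groups did not overlap for the 4 higher and 13 of the 15 lower members, and 17.9% of all genes were called higher and 18.2% lower without overlap.

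Acat2 had 7.44, 7.53, 7.45 and 7.25 in DFFDA_H, against 8.2, 8.54, 8.54 and 8.41 in DFFDA_L libraries (log2 difference -1 ± 0.093 (SE), adjusted p = 4.57e-06). Lss had 5.01, 5.26, 5.07 and 5.33 in DFFDA_H, against 6.29, 6.24, 6.18 and 6.11 in DFFDA_L libraries (log2 difference -1.04 ± 0.096 (SE), adjusted p = 4.69e-06). Neither gene's groups overlapped, and Lss is the enzyme that was not called over the 7 fresh populations. Lbr had 5.81, 5.95, 5.54 and 5.52 in DFFDA_H, against 6.79, 7.02, 6.96 and 6.7 in DFFDA_L libraries (log2 difference -1.16 ± 0.11 (SE), adjusted p = 5.97e-06). Hmgcs1 (-0.6), Idi1 (-0.77), Fdps (-0.77), Fdft1 (-0.59), Sqle (-0.44) and Cyp51 (-0.48) were also lower in DFFDA_H. Tm7sf2 had 5.63, 5.89, 5.77 and 5.62 in DFFDA_H, against 5.19, 5.22, 5.37 and 5.25 in DFFDA_L libraries (log2 difference 0.47 ± 0.096 (SE), adjusted p = 0.00162), with no overlap.

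Of the genes of control and storage, Soat1 had 7.82, 7.79, 7.71 and 7.75 in DFFDA_H, against 7, 7.3, 7.07 and 7.28 in DFFDA_L libraries (log2 difference 0.61 ± 0.084 (SE), adjusted p = 9e-05). Insig2 had 6.82, 6.8, 6.66 and 6.51 in DFFDA_H, against 5.89, 6.23, 6.05 and 6.21 in DFFDA_L libraries (log2 difference 0.6 ± 0.1 (SE), adjusted p = 0.000375). Both were higher in DFFDA_H without overlap, as was Nr1h3, the other liver X receptor (log2 difference 0.97 ± 0.22 (SE), adjusted p = 0.0029). Stard4 had 6.36, 6.38, 6.14 and 6.16 in DFFDA_H, against 7.17, 7.22, 7.09 and 7.19 in DFFDA_L libraries (log2 difference -0.91 ± 0.083 (SE), adjusted p = 4.3e-06), the smallest p of the members. Srebf2 was lower (log2 difference -0.6 ± 0.16 (SE), adjusted p = 0.00872) and Srebf1 was not called (0.3), except without DFFDA_L replicate 1 (0.54, adjusted p = 0.0194). In a fit over all 36 libraries Stard4 (-0.91, adjusted p = 0.341), Nr1h3 (0.97, 0.15), Mvd (-0.46, 0.118), Dhcr7 (-0.39, 0.0802) and Pmvk (-0.42, 0.0681) were not called. The 6 activated stem cell and progenitor markers summed to 381 to 446 in DFFDA_H and 604 to 757 in DFFDA_L. The 6 oligodendrocyte precursor markers summed to 118 to 144 in DFFDA_H and 167 to 347 in DFFDA_L. Most of that sum came from Lhfpl3 (means 6.79 in DFFDA_H and 7.61 in DFFDA_L). Sox10 and Gpr17 averaged under 0 in both fractions, and Pdgfra averaged -0.92 in DFFDA_H and 1.84 in DFFDA_L. The part of these 2 marker lists in the result was not tested.

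Each neurosphere fraction was then set against a fresh stem cell population, DFFDA_H against qNSC and DFFDA_L against aNSC, in 1 fit over all 36 libraries. The culture and the tissue libraries also differ in the markers of other cells given below. In DFFDA_H 11 members were higher and 12 lower than in qNSC (74.2% of all genes called, 37.2% higher and 36.9% lower). In DFFDA_L 16 were higher and 6 lower than in aNSC (70.1% of all genes called, 31.4% higher and 38.7% lower), with medians of 0.8 for the members and -0.19 for all genes. Of the 19 enzymes 12 were higher and 2 lower in DFFDA_L than in aNSC, against 8 higher and 7 lower in DFFDA_H than in qNSC. Higher in both were 9 of the 28 genes (24% of all genes), Acat2, Hmgcs1, Cyp51, Nsdhl, Ebp, Dhcr7, Insig1, Insig2 and Stard4. Lower in both were 5 of the 28 (26.5% of all genes), Idi1, Srebf1, Srebf2, Scap and Nr1h2. Markers of other cells moved too. All 10 microglial markers were called lower in both comparisons, with sums of 105 to 116 in DFFDA_H against 336 to 745 in qNSC and 75.5 to 88.7 in DFFDA_L against 261 to 387 in aNSC. The 10 astroglial and stem cell markers were all lower in DFFDA_H (2350 to 2780, against 21600 to 23400 in qNSC), and in DFFDA_L 4 were higher and 5 lower than in aNSC. Of 8 neuroblast markers 5 were lower and 1 higher in DFFDA_H than in qNSC, and 7 lower and 1 higher in DFFDA_L than in aNSC. Of 6 activated stem cell and progenitor markers 5 were higher in DFFDA_H than in qNSC, and 5 were lower in DFFDA_L than in aNSC. Their part in the members' differences was not tested.

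The regulators split between these lists. Insig1 had 8.03, 8.23, 8.02 and 7.97 in DFFDA_H, against 6.59, 6.77, 6.73 and 6.52 in qNSC libraries (log2 difference 1.41 ± 0.14 (SE), adjusted p = 1.66e-10). Srebf2 had 5.74, 5.88, 6.08 and 6.37 in DFFDA_H, against 8.31, 8.27, 8.18 and 8.3 in qNSC libraries (log2 difference -2.25 ± 0.14 (SE), adjusted p = 2.72e-15). Insig1 was thus higher and Srebf2 lower in DFFDA_H, neither with any overlap. In DFFDA_L Srebf2 had 7.07, 6.34, 6.54 and 6.52, against 7.89, 7.79, 7.65 and 7.79 in aNSC libraries (log2 difference -1.16 ± 0.14 (SE), adjusted p = 1.41e-08). Srebf1 differed by -3.3 between DFFDA_H and qNSC and by -1.49 between DFFDA_L and aNSC. Nr1h2 differed by -0.63 between DFFDA_L and aNSC.

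Of the enzymes, Nsdhl had 7.12, 7.25, 7.13 and 7.24 in DFFDA_L, against 5.11, 4.91, 4.96 and 5.19 in aNSC libraries (log2 difference 2.14 ± 0.13 (SE), adjusted p = 1.26e-15). Dhcr7 had 8.18, 8.13, 8.12 and 8.34 in DFFDA_L, against 5.81, 5.74, 5.59 and 5.89 in aNSC libraries (log2 difference 2.43 ± 0.16 (SE), adjusted p = 5.01e-15). In both genes all DFFDA_L libraries lay above all aNSC libraries. Msmo1 had 9.34, 9.68, 9.5 and 9.39 in DFFDA_L, against 7.74, 7.61, 7.64 and 7.68 in aNSC libraries (log2 difference 1.81 ± 0.12 (SE), adjusted p = 1.3e-14). Ebp had 5.89, 5.95, 5.96 and 6.15 in DFFDA_L, against 3.55, 3.29, 3.54 and 3.36 in aNSC libraries (log2 difference 2.55 ± 0.23 (SE), adjusted p = 2.22e-11). Lbr and Idi1 were the 2 lower enzymes. Lbr had 6.79, 7.02, 6.96 and 6.7 in DFFDA_L, against 8.23, 8.16, 8.25 and 8.16 in aNSC libraries (log2 difference -1.33 ± 0.25 (SE), adjusted p = 1.49e-05), and was higher in DFFDA_H than in qNSC (log2 difference 0.93 ± 0.25 (SE), adjusted p = 0.00116, and 0.56 with adjusted p = 0.0151 without qNSC replicate 1).

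Against qNSC, the higher enzymes in DFFDA_H were led by Ebp, with 5.98, 5.96, 5.85 and 5.61 in DFFDA_H (log2 difference 2.27 ± 0.23 (SE), adjusted p = 2.72e-10), and Nsdhl, with 7.04, 7.12, 6.95 and 7.01 in DFFDA_H (log2 difference 1.03 ± 0.13 (SE), adjusted p = 1.9e-08). Fdft1, with 6.91, 6.95, 6.87 and 6.86 (log2 difference -1.38 ± 0.098 (SE), adjusted p = 4.02e-14), and Mvd, with 4.96, 5.05, 4.78 and 4.95 (log2 difference -1.36 ± 0.21 (SE), adjusted p = 5.17e-07), led the lower ones. Pmvk, Msmo1, Sc5d and Soat1 were lower in DFFDA_H than in qNSC but higher in DFFDA_L than in aNSC. Stard4 was higher in DFFDA_H by 4.63 with all qNSC libraries and by 3.36 without replicate 1 (adjusted p = 8.1e-12). Some calls against qNSC were lost without single libraries: Cyp51 without qNSC replicate 3 or 4 or DFFDA_H replicate 1 (adjusted p = 0.0587 to 0.0913), Dhcr7 without qNSC replicate 3 or 4 or DFFDA_H replicate 2 or 4 (0.0532 to 0.107), and Soat1 without any 1 except qNSC replicate 4 (0.0526 to 0.0747). The Idi1 call between DFFDA_L and aNSC was lost without aNSC replicate 1 or 2 or DFFDA_L replicate 1 (0.0628 to 0.21).

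**Figure D4:**
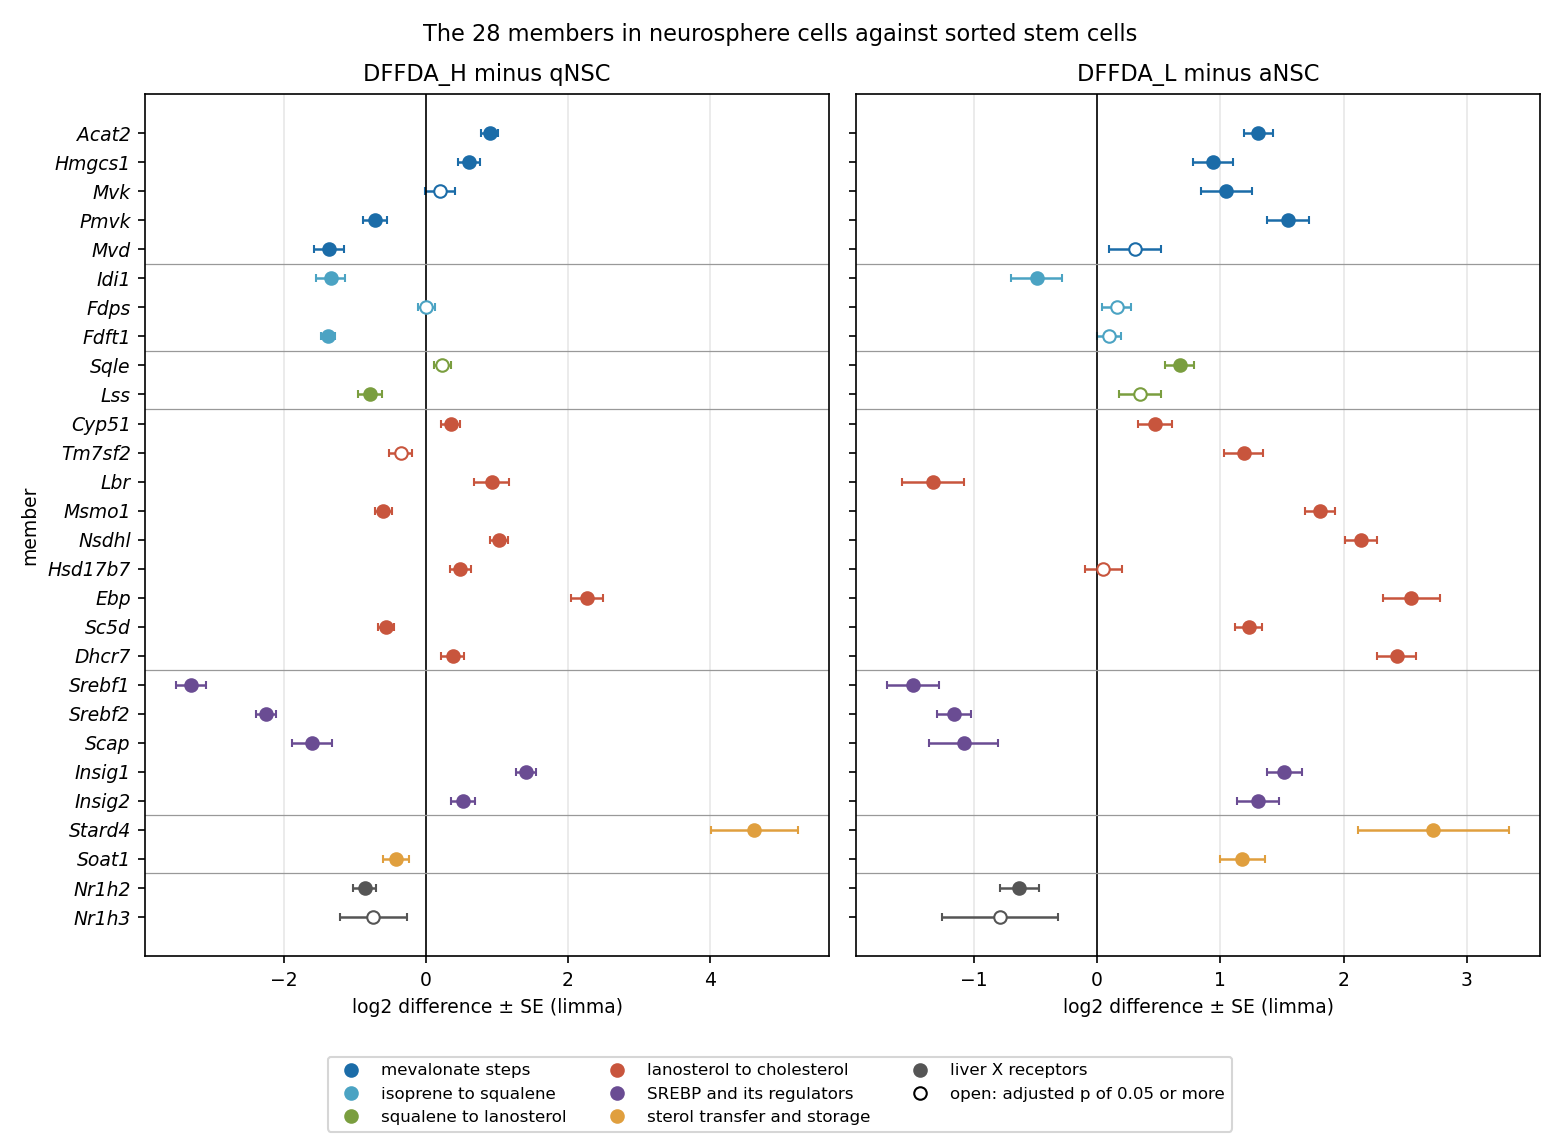
Log2 difference ± SE of the 28 genes for DFFDA_H minus qNSC (left) and DFFDA_L minus aNSC (right), with open points for an adjusted p of 0.05 or more. Stard4, Ebp and Insig1 lie above 0 and Srebf1 and Srebf2 below 0 in both, while Msmo1, Sc5d and Soat1 lie below 0 on the left and above 0 on the right.

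Whether DFFDA_H differed from DFFDA_L as qNSC did from aNSC was tested as the difference of both differences. For 17 of the 28 genes they were called apart, 1 with the culture difference higher and 16 lower, where 42.3% of all genes were called (24% higher and 18.3% lower). For 11 of the 28 genes they were called apart with opposite signs (15.4% of all genes); among these are Idi1 and Lss, whose differences between qNSC and aNSC, 0.07 and 0.1, were not called. Pmvk, Mvd, Fdft1, Msmo1, Dhcr7 and Srebf2 were called higher in qNSC than in aNSC and lower in DFFDA_H than in DFFDA_L, each in the fit of its own libraries. The share of all genes with such a pair of calls was not counted. In the fit of all 36 libraries, from which this test comes, DFFDA_H minus DFFDA_L was not called for Pmvk, Mvd and Dhcr7 (adjusted p = 0.0681, 0.118 and 0.0802). Msmo1 differed by -0.41 between DFFDA_H and DFFDA_L and by 2 between qNSC and aNSC (log2 difference -2.41 ± 0.17 (SE), adjusted p = 1.3e-12). Sc5d differed by -0.16 in culture and 1.62 in tissue (log2 difference -1.78 ± 0.16 (SE), adjusted p = 1.52e-10). Pmvk differed by -0.42 in culture and 1.84 in tissue (log2 difference -2.27 ± 0.23 (SE), adjusted p = 2.59e-09), and Fdft1 by -0.59 in culture and 0.89 in tissue (log2 difference -1.48 ± 0.14 (SE), adjusted p = 3.75e-10).

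Other genes kept 1 sign. Acat2, Fdps, Cyp51, Lbr and Stard4 were called lower in DFFDA_H than in DFFDA_L and in qNSC than in aNSC, each in the fit of its own libraries. In the fit of all 36 libraries DFFDA_H minus DFFDA_L was not called for Stard4 (adjusted p = 0.341). Of these 5, Lbr alone was called apart, with -1.16 in culture and -3.42 in tissue (log2 difference 2.26 ± 0.35 (SE), adjusted p = 3.12e-06). Tm7sf2, Insig2 and Soat1 were called higher in both settings and were all called apart, with smaller differences in culture (0.47 and 2 for Tm7sf2, 0.6 and 1.39 for Insig2, 0.61 and 2.21 for Soat1). The shares of all genes called lower or higher in both settings were not counted. Under median-ratio centring 1 gene was called apart higher and 19 lower, 44% of all such calls were higher in place of 56.7%, and the median of all genes was -0.11 in place of 0.14. The Sqle call was lost without qNSC replicate 1 or 2, aNSC replicate 3 or 4, DFFDA_H replicate 3 or DFFDA_L replicate 2 or 4 (adjusted p = 0.053 to 0.0787), the Mvk call without qNSC or aNSC replicate 2 (0.0828 and 0.0585) and the Idi1 call without DFFDA_H replicate 4 or DFFDA_L replicate 2 (0.0557 and 0.0522).

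**Figure D5:**
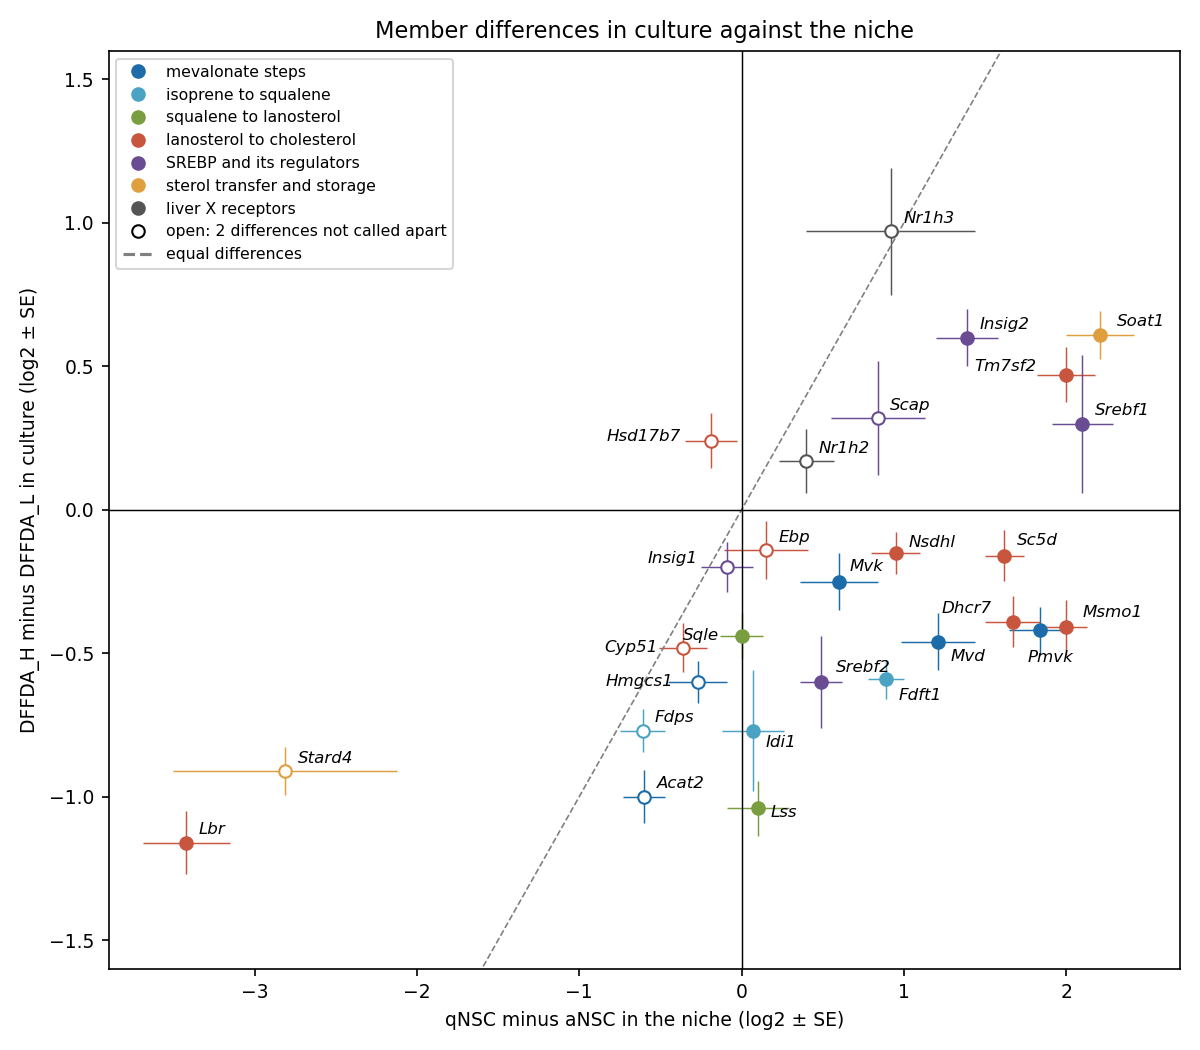
Log2 difference ± SE of DFFDA_H minus DFFDA_L (vertical) against that of qNSC minus aNSC (horizontal) for the 28 genes, coloured by role, with filled points where both differences were called apart and a dashed line where they are equal. Pmvk, Mvd, Fdft1, Msmo1, Sc5d, Nsdhl and Dhcr7 lie to the right of 0 and below it, and Lbr and Stard4 lie below 0 on both axes.

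Genes around the pathway were read from 5 lists that named 61 genes in all, and their counts stand beside the share of all genes called. The deposited table held 12 of the 13 SREBP processing genes, 7 of the 10 sterol turnover genes and all genes of the other lists. Between aNSC and qNSC, where 35.3% of all genes were higher and 27.1% lower, 3 of 17 fatty acid synthesis genes were higher and 10 lower (Acss2, which makes acetyl-CoA from acetate, -1.89, Fads2, a desaturase, -2.17, and Acly, which makes it from citrate, 1.16). Of 7 genes of liver X receptor targets and sterol export, none was higher and 5 were lower, among them Lpcat3 (-2.85) and Abcg4 (-2.5). Of 7 genes of oxysterol and sterol turnover 1 was higher and 4 lower, among them Hsd3b7 (-3.7) and Cyp46a1, which makes the brain's main oxysterol (-4.82). SREBP processing and sterol-regulated degradation had 4 of 12 higher and 5 lower, with Mbtps1, the first protease that cuts SREBP, among the higher (1.3). The isoprenoid branch, which uses farnesyl and geranylgeranyl groups for other products, had 4 of 14 higher and 4 lower.

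Between NB2 and NB1, 10.4% of all genes were higher and 14.2% lower. Fatty acid synthesis had 1 of 17 higher and 4 lower, SREBP processing 3 of 12 higher and 1 lower, export genes 2 of 7 higher and none lower (Abca1, 1.04, and Abcg1, 3.14), sterol turnover 1 of 7 higher, and the isoprenoid branch none of 14 in either direction. Between DFFDA_H and DFFDA_L, where 21.6% of all genes were higher and 22.3% lower, 5 of 6 tested export genes were higher in DFFDA_H and none lower. Abca1, a transporter that loads sterol onto lipoproteins, averaged 5.91 in DFFDA_H and 2.26 in DFFDA_L (3.65, adjusted p = 8.56e-08), and Abcg1, its partner, differed by 3.09 (adjusted p = 0.000108). Sterol turnover had 5 of 7 higher, among them Hsd3b7 (2.3) and Nceh1, a hydrolase of cholesterol esters (0.93), and none lower. Fatty acid synthesis had 3 of 15 higher and 4 lower, led by Thrsp (2.57) and Elovl6 (-1.07). SREBP processing had 4 of 12 higher and none lower, and the isoprenoid branch 2 of 14 higher and 2 lower.

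Against the fresh cells, fatty acid synthesis had 2 of 17 genes higher and 13 lower in DFFDA_H than in qNSC (37.2% of all genes higher and 36.9% lower), and 6 higher and 8 lower in DFFDA_L than in aNSC (31.4% and 38.7% of all genes). Scd1, a desaturase, was 6.62 higher in DFFDA_L than in aNSC and 2.55 higher in DFFDA_H than in qNSC. Abca1 differed by -3.86 between DFFDA_L and aNSC and by -1.35 between DFFDA_H and qNSC.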

How the data were processed

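Per the labels' protocols, poly(A) RNA from FACS-sorted cells was amplified with the SMARTer Ultra Low kit, whose libraries do not keep the strand, and sequenced on a NextSeq 500. Of tools, the submitters' processing notes list HISAT2, featureCounts, limma, Trimmomatic, cutadapt and FastQC, and of builds mm10 and GRCm38, without roles. What the authors deposited is 1 table with log2 values of 19909 genes and 36 libraries, with no header naming the unit. Linear values sum to 987637 to 987910 in each library, which resembles log2 CPM (counts scaled to an equal library total), and the nearly equal distributions resemble quantile normalization. Such scaling hides any change in total RNA and can shift all genes between unlike populations.

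Genes at log2 0 or more in at least 3 libraries of 1 population were kept: 17788 in a fit of the 28 fresh libraries, 15956 in a fit of the 8 neurosphere libraries and 19158 in a fit of all 36, used for differences between culture and tissue. Each was fitted with limma 3.58.1 in R 4.3.3 (trend and robust on), and p-values were adjusted by Benjamini-Hochberg over all genes of the fit. Values were given per library for at most 4 called members in each direction and comparison, those with the smallest p and a higher group averaging log2 3 or more, or for the 2 with the smallest p where none was called, and for others as needed to follow these. From each of the pathway lists, called genes with the smallest p were named, at most 2 in each direction. The members and all lists were chosen with earlier results of these data known. The fits did not pair libraries by replicate number. With each gene's population mean removed, all 4 pNSC libraries correlated best with the qNSC library of their number (r = 0.058 to 0.14). The same held for 4 of 4 aNSC libraries against pNSC (0.063 to 0.17) and 3 of 4 against qNSC. It held for 0 of 3 NB2 libraries against NB1. The labels do not say what libraries of the same number share. Alternatives were no filter or a stricter one, trimmed-mean or median-ratio centring, library weights, a replicate block, other sets of libraries in the fit, and each library left out in turn. Promoter windows came from RefSeq and exon overlaps from the GENCODE annotation of GRCm38.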

Additional observations from a re-analysis of the deposited data

Results flagged for a closer look

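For 17 of the 28 genes the difference between DFFDA_H and DFFDA_L was called apart from that between qNSC and aNSC. Of all genes 42.3% were called apart (24% higher and 18.3% lower). The culture difference minus the tissue difference was 2.26 for Lbr. Among the enzymes up to squalene it was -0.85 for Mvk, -2.27 for Pmvk, -1.67 for Mvd, -0.84 for Idi1 and -1.48 for Fdft1. For the squalene and ring-closing steps it was -0.43 for Sqle and -1.14 for Lss. Beyond lanosterol it was -1.54 for Tm7sf2, -2.41 for Msmo1, -1.11 for Nsdhl, -1.78 for Sc5d and -2.06 for Dhcr7. For the genes of control and storage it was -1.81 for Srebf1, -1.09 for Srebf2, -0.79 for Insig2 and -1.6 for Soat1. The calls of Mvk, Idi1 and Sqle were lost without single libraries, as given above.

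In 4 of 168 sets of 4 libraries (28 genes in 6 populations), 1 library lay far from the others of its population, with a gap to the nearest of them that made up most of the range. Chance alone flags about 1 in 20 such sets. Lbr in qNSC replicate 1 was at 3.69, against 5.09 to 5.18 in the other qNSC libraries (gap 0.939 of the range). Soat1 in pNSC replicate 1 was at 7.24, against 7.99 to 8.04 in the other pNSC libraries (0.94 of the range), and Sc5d in the same library was at 7.6, against 7.92 to 7.95 (0.931). Nr1h3 in NPC1 replicate 1 was at 0.74, against 1.35 to 1.4 in the other NPC1 libraries (0.921).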

How the results depend on the processing

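The number of called members stayed within 1.5 times its value in 112 of 121 results under an alternative processing. It moved between NB1 and NPC2, where 2 members were called, to 4 with the replicate block, 12 with library weights and 6 when only the populations compared were fitted. It moved between pNSC and qNSC, where 3 were called, to 1 with library weights, 1 when only those populations were fitted, 7 with all 36 libraries in 1 fit and 8 under median-ratio centring. With library weights it was 15 in place of 9 between NPC1 and aNSC and 3 in place of 0 between NPC2 and NPC1. The replicate block moved no other count by more than 1.5 times. Median-ratio centring was chosen after seeing the data; under it Sqle was called lower in aNSC than in qNSC (-0.3, adjusted p = 0.0358, in place of 0 and 0.985), and the median of all genes went to 0.08 in place of 0.3 between NB2 and qNSC and to 0 in place of -0.19 between DFFDA_L and aNSC. Its cause was not tested. With 1 library left out at a time, the number of called members was 1 to 5 between pNSC and qNSC, 15 to 18 between aNSC and pNSC, 18 to 21 between aNSC and qNSC, 5 to 9 between NPC1 and aNSC, 0 between NPC2 and NPC1, 0 to 1 between NB1 and NPC2, 12 to 15 between NB2 and NB1, 21 to 22 between NB2 and qNSC, 17 to 21 for Other, 25 to 26 over the 7 fresh populations, 19 to 21 between DFFDA_H and DFFDA_L, 20 to 23 between DFFDA_H and qNSC, 21 to 22 between DFFDA_L and aNSC, and 15 to 18 for the difference between culture and tissue. Over single members, 2985 of 3114 values under an alternative kept their direction and side of the threshold, 25 lost and 103 gained a call and 1 reversed; with a library left out, 3391 of 3528 kept theirs, 101 lost and 36 gained a call. For Other and for DFFDA_H against DFFDA_L a fit of only the populations compared was not separate. Without read totals, no limit of detection can be given beyond each library's floor.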
